A study of Caenorhabditis elegans with 2 samples.

Results

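The regions described here were the X chromosome entries, away from small RNA genes, of a chromatin immunoprecipitation sequencing (ChIP-seq) experiment on the C. elegans protein T26A5.8. An entry was taken when it lay on X in the list called on both replicates pooled and its summit was more than 200 bp from every annotated tRNA, snoRNA and snRNA gene. This gave 5693 X regions of 30000 entries in all, beside 23565 autosomal regions chosen in the same way. The samples were 1 group of 2 biological replicates, numbered 3 and 4, of whole young adult worms of strain OP598. The strain carried unc-119(tm4063) on chromosome III and the integrated array wgIs598, which expressed T26A5.8 with GFP and FLAG at its C-terminus, and the immunoprecipitation used an antibody against GFP. Males and females were pooled and collected 63 h after starved L1 larvae had been synchronized. Signal from a whole animal cannot be assigned to a tissue, the share of males is not given in the sources used here, and control libraries were not analysed here.

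T26A5.8 is named pole-3, DNA polymerase epsilon subunit 3, in the RefSeq annotation. In other species this small histone-fold protein belongs to the leading-strand DNA polymerase, and in flies and mammals it is also found in a chromatin remodelling complex. The worm X chromosome carries few genes used by every cell or by the germline and a large part of the tRNA genes. In hermaphrodites a condensin-containing dosage compensation complex binds both X chromosomes and lowers their transcription. It is loaded at recruitment elements on X, where a recurring DNA motif contains the core CGCAGGG.

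The sequences at the summits are given first, because short strings recurred in the summit windows of the strongest X regions. One of them, GCGAAGGG, was found by reading those X windows, so its contrast with the autosomes was partly set by that choice. The lines below show 101 bases of ce11 centred on the summit for the X regions ranked 1, 2, 4, 5, 6 and 22 by pooled signal, from the strand named. Capitals mark the core CGCAGGG and the string GCGAAGGG on either strand. Counted from 1 at the 5′ end of the core, CGAAGGG differs from it by C3A.
rank 1, near W02H3.3, chrX:11094160-11094260, minus strand: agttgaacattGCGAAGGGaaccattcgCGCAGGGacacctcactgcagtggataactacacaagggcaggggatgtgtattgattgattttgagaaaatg
rank 2, in an intron of mom-1, chrX:6296485-6296585, plus strand: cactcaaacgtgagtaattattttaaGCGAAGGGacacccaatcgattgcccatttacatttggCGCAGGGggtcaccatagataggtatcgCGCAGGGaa
rank 4, near fbxb-58, chrX:1627062-1627162, plus strand: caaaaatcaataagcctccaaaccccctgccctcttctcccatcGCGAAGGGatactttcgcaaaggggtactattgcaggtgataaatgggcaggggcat
rank 5, near F55G7.5, chrX:11937485-11937585, plus strand: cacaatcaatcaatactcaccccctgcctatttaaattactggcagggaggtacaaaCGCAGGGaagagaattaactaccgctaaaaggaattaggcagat
rank 6, upstream of nspc-17, chrX:14525908-14526008, plus strand: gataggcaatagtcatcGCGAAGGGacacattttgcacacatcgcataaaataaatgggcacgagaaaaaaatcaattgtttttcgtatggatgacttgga
rank 22, near F20B6.9 and hpk-1, chrX:4209234-4209334, plus strand: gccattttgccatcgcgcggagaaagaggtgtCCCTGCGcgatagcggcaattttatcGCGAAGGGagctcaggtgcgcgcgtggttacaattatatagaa

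The core also stood beside the summits ranked 17 and 80, shown here over 61 bases with the core in capitals.
rank 17, in the pseudogene T26C11.3, chrX:1837866-1837926, plus strand: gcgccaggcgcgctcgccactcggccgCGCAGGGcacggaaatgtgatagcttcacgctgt
rank 80, chrX:806648-806708, plus strand: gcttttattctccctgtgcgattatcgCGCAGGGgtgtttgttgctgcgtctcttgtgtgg

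The core CGCAGGG, searched on both strands, lay in the 101-base window of 5 of the 25 strongest X regions, or 20.0% (exact 95% binomial interval 6.83 to 40.7%). It lay in 0 of the 25 strongest autosomal regions (0 to 13.7%). Over the whole of the regions, it lay in 6 of the 25 strongest on X and in 1 of the 25 strongest on the autosomes. Among the 100 strongest of each, 6 X windows and 0 autosomal windows held it, which for the autosomes allows up to 3.62%. Over all regions the core was rare on both, in 29 of 5693 X windows (0.509%) and in 67 of 23565 autosomal windows (0.284%). Windows of the same length 400 bp away held it in 0.123% of X regions and 0.157% of autosomal regions. From the 1001st to the 2500th region in rank, the share was 0.267% on X and 0.267% on the autosomes. These intervals cover the counting of regions only, and a match is a run of letters, not a shown binding site. Sets of equal number are a larger part of the X regions than of the autosomal ones. Of the 5 strongest X regions with the core, only those ranked 1 and 2 reached the authors' list thresholded for reproducibility. Those ranked 17 and 22 had ranks of 297 and 271 in the replicate 3 list but 1911 and 2766 in the replicate 4 list.

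The letters were about as common along X as along the autosomes. Outside the neighbourhood of small RNA genes, X had 296 copies of the core, or 16.7 per Mb, and the autosomes had 1297, or 15.7 per Mb. A region summit lay within 50 bp of 33 of the X copies (11.1%) and of 68 of the autosomal copies (5.24%). Of these copies, 7 on X and 0 on the autosomes stood beside 1 of the 100 strongest regions.

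The string GCGAAGGG was noticed only after the strongest X windows had been read, so its counts are a description and do not test X against the autosomes. Neither string contains the other. It lay in 5 of the 25 strongest X windows, those ranked 1, 2, 4, 6 and 22, and in 0 of the 25 strongest autosomal ones. Over all regions it lay in 16 X windows (0.281%) and in 23 autosomal windows (0.0976%). Another string chosen after values had been seen, GGCAGGG, lay in 3 of the 25 strongest X windows and 0 of the 25 strongest autosomal ones. Over all regions it lay in 0.562% of X windows and 0.433% of autosomal windows. The shorter string CGAAGGG is part of GCGAAGGG, so counts that include it are likewise a description only. With either CGCAGGG or CGAAGGG counted, 7 of the 25 strongest X windows and 0 of the 25 strongest autosomal windows held a match. For the 100 strongest of each, the counts were 10 on X and 0 on the autosomes. Over all regions they were 69 of 5693 on X (1.21%) and 167 of 23565 on the autosomes (0.709%). The windows of the 6 strongest X regions held a match except the one ranked 3. The strings extended beyond the searched letters in some pairs: ranks 1 and 22 shared 17 bases around the core, and ranks 4 and 6 shared 13 bases around GCGAAGGG. Ranks 1 and 5 shared a further 13 bases, aatcaatcaatac, that held neither string.

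**Figure D1:**
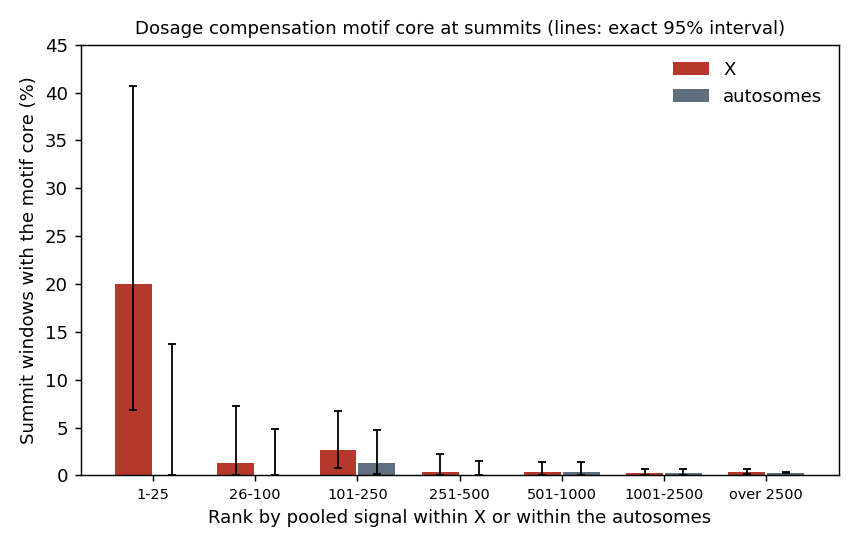
Share of 101-base summit windows with the core CGCAGGG on either strand (y axis, %) by rank in pooled signal within X or within the autosomes (x axis). Bars are percentages and lines exact 95% binomial intervals; X reaches 20.0% in its 25 strongest regions and both sides are at 0.267% from rank 1001 to 2500.

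Over all regions, 3 other strings were about as common on X as on the autosomes. GTTCGA, found in the internal promoter of tRNA genes, lay in 3.86% of X windows and 4.46% of autosomal windows. GCGCAC lay in 2.88% of X windows and 2.40% of autosomal windows, and GAGAGA in 7.57% of X windows and 7.58% of autosomal windows. In the 100 strongest of each, all 3 were in fewer windows on X, with overlapping intervals. GTTCGA was in 4 on X and 11 on the autosomes, GCGCAC in 3 and 8, and GAGAGA in 12 and 17. Summits were richer in G and C than their surroundings on both: 42.9 ± 8.13% on X (SD, n = 5693 windows) and 42.7 ± 8.24% on the autosomes (SD, n = 23565 windows), against 35.0% and 36.1% at 400 bp from those summits.

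Few X regions reached the list that the authors thresholded for reproducibility between the replicates. Of the X regions, 8 of 5693 overlapped a thresholded region, or 0.141% (0.0607 to 0.277%), beside 1.47% of all pooled entries. Of the autosomal regions, 242 of 23565 did, or 1.03% (0.902 to 1.16%). The thresholded list itself had 7 regions on X away from small RNA genes, 0.395 per Mb, and 189 on the autosomes, 2.29 per Mb. X thus made up 3.57% (1.45 to 7.22%) of these 196 regions, while it made up 17.7% of the chromosome length and 13.7% of the protein-coding genes. Chromosome V was the lowest autosome, with 28 of 6276 regions thresholded (0.446%, 0.297 to 0.644%), an interval that lies above that of X. Most thresholded X regions were beside small RNA genes: 68 of all 75 lay within 200 bp of one. X has 312 of the 1087 genes of these classes. Within 100 bp of one, 71 of 230 X entries (30.9%) and 107 of 421 autosomal entries (25.4%) were thresholded. Around the 200 bp limit, 3 of the 16 X entries with a summit 101 to 200 bp from a small RNA gene were thresholded. Of X entries past it, 0 of the 2 at 201 to 300 bp and 0 of the 5 at 301 to 500 bp were. Farther out, 0 of the 88 X entries at 501 to 1000 bp were thresholded, 4 of the 469 at 1001 to 5000 bp (0.853%) and 4 of the 5129 beyond (0.0780%). Autosomal entries were thresholded in 26 of 1588 (1.64%) at 1001 to 5000 bp and in 204 of 21608 (0.944%) beyond.

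The median signal of the listed regions was close on X and on the autosomes, and the difference lay in the upper tail. Signal here is the enrichment value of the authors' caller, comparable within a list only. In the pooled list the median was 26.5 on X and 26.6 on the autosomes. That list includes background regions and its lowest signal was 19.3, with lower quartiles of 22.5 on X and 22.4 on the autosomes. The close medians thus describe entries near the bottom of the list and do not measure typical binding. The 95th percentile was 45.1 on X and 50.4 on the autosomes, the 99th was 60.3 on X and 76.0 on the autosomes, and the highest value was 134.5 on X and 338.6 on the autosomes. The replicate lists also had close medians and a lower 99th percentile on X. In replicate 3 the medians were 17.0 on X and 17.0 on the autosomes, and the 99th percentiles 38.1 on X and 45.3 on the autosomes. In replicate 4 the medians were 14.9 on X and 15.02 on the autosomes, and the 99th percentiles 32.1 on X and 39.7 on the autosomes.

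**Figure D2:**
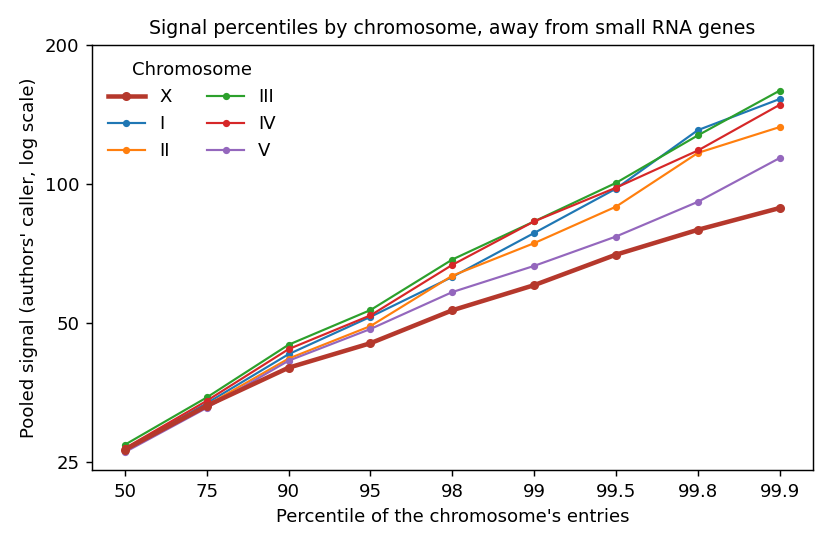
Pooled signal (y axis, authors' caller value, log scale) at percentiles 50 to 99.9 (x axis) of the regions of each chromosome away from small RNA genes. X runs with the autosomes at the median and lies below all of them from the 90th percentile up, with V the nearest.

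The X share was smaller among the strongest regions than among all. X held 19.5% of all pooled regions away from small RNA genes, 14.8% of the 3000 strongest, 10.4% of the 1000 strongest and 8.13% of the 369 strongest, which is 30 regions (5.55 to 11.4%). It held 2 of the 100 strongest. The 369 strongest of replicate 3 had 30 X regions (8.13%) and those of replicate 4 had 23 (6.23%). The 50 strongest had 0 X regions in replicate 3 and 1 in replicate 4.

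**Figure D3:**
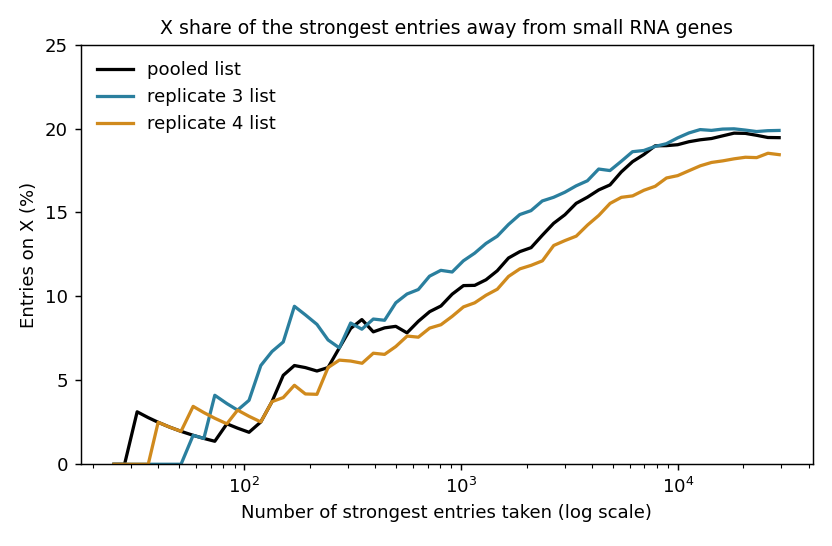
Percentage of the strongest entries away from small RNA genes that lie on X (y axis) against the number of strongest entries taken (x axis, log scale), for the pooled list and each replicate list. The share is lower in all 3 lists for the 1000 strongest than for the 10000 strongest, with dips on the way where few entries are taken, and the lines end at 18.4 to 19.9% when every entry is included.

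Regions of like signal were also compared. The 25 strongest X regions had a pooled signal of 72.0 or more, and 7 of them were thresholded (28.0%, 12.1 to 49.4%). Of the 284 autosomal regions at or above that signal, 180 were (63.4%, 57.5 to 69.0%), but these included 86 regions above a signal of 100, where X had 2. Between 80 and 100, 4 of 9 X regions (44.4%, 13.7 to 78.8%) and 73 of 112 autosomal regions (65.2%, 55.6 to 73.9%) were thresholded. Between 70 and 80, 1 of 19 X regions (5.26%, 0.133 to 26.03%) and 22 of 118 autosomal regions (18.6%, 12.1 to 26.9%) were. Within these narrower ranges the intervals overlap.

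In the share of thresholded regions, X and the autosomes were farthest apart at the ends of protein-coding genes. A gene-end window, from 200 bp upstream to 500 bp downstream of the end of a protein-coding gene, held the summit of 9.06% of X regions and 19.8% of autosomal regions. Among the 100 strongest of each, it held 12 on X and 63 on the autosomes. X has 13.7% of the protein-coding genes on 17.7% of the chromosome length, so gene ends are sparser there. The share of sequence in such windows is not given here. None of the 516 X regions in such windows was thresholded, against 164 of 4675 on the autosomes. Split by the promoter window, which covered 1000 bp before and 200 bp after the start, regions in the gene-end window only were thresholded in 0 of 400 on X (up to 0.918%) and 90 of 2929 on the autosomes (3.07%, 2.48 to 3.76%). Regions in both windows were thresholded in 0 of 116 on X (up to 3.13%) and 74 of 1746 on the autosomes (4.24%, 3.34 to 5.29%). Regions in the promoter window only were thresholded in 1 of 916 on X (0.109%, 0.00276 to 0.607%) and 36 of 4014 on the autosomes (0.897%, 0.629 to 1.24%).

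Away from both windows the gap was small. There 7 of 4261 X regions (0.164%, 0.0661 to 0.338%) and 42 of 14876 autosomal regions (0.282%, 0.204 to 0.381%) were thresholded, and the intervals overlap. The 99th percentile of signal was 57.7 on X and 60.1 on the autosomes in this class. The same held for the ranks. X made up 22.3% of all pooled regions in neither window and 20.2% (12.3 to 30.4%) of those among the 369 strongest. It made up 9.94% of all regions in gene-end windows and 3.08% (1.25 to 6.25%) of those among the 369 strongest. In gene-end windows the strongest 369 of replicate 3 had 4 X regions of 205, and those of replicate 4 had 4 of 214. In neither window they had 22 of 101 in replicate 3 and 15 of 97 in replicate 4.

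**Figure D4:**
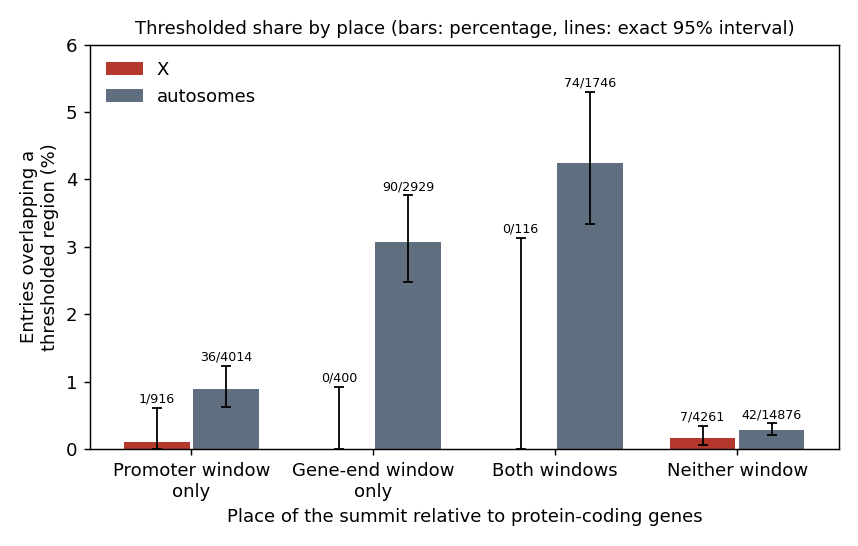
Percentage of regions that overlap a thresholded region (y axis) by the place of the summit relative to protein-coding genes (x axis), X beside the autosomes, with exact 95% binomial intervals and counts above. The X bars are at 0 in both gene-end classes, where the autosomes reach 3.07 and 4.24%, and the intervals overlap in neither window.

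Counted by gene, none of the 2731 protein-coding genes of X had a thresholded region at its end (up to 0.135%), and 1 had one in its promoter window. On the autosomes 159 of 17242 genes (0.922%) had one at the end and 119 (0.690%) in the promoter window. A region of any strength was found in the promoter window of 35.2% of X genes and 31.7% of autosomal genes, and at the end of 19.3% of X genes and 27.7% of autosomal genes. By an ordered assignment of summits, X regions were 32.2% promoter, 32.6% exon, 20.5% intron, 3.36% gene end and 11.3% intergenic, where autosomal regions were 33.7%, 35.5%, 20.8%, 3.57% and 6.42% of the same classes. Among these ordered classes, intergenic summits had the widest gap in percentage points.

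The 8 thresholded X regions fell at 7 places. The strongest, chrX:11094030-11094389, was intergenic, 2742 bp past the end of W02H3.3, and held the core. Its signal was 134.5 pooled, 67.9 in replicate 3 and 62.9 in replicate 4. The second, chrX:6296355-6296714, lay in an intron of mom-1, which encodes a Porcupine-like protein needed to make Wnt signals, and held 2 copies of the core. Its signal was 106.4 pooled, 53.9 in replicate 3 and 51.5 in replicate 4. The region chrX:14525778-14526137, 777 bp upstream of nspc-17, a gene of a nematode-specific peptide family, had 88.7 pooled, 43.7 in replicate 3 and 40.8 in replicate 4. In the ranking of each list these 3 regions stood high in both replicates, with ranks no lower than 526th in replicate 3 and 397th in replicate 4.

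The other thresholded places were uneven between the replicates. One was the gene of mir-34, a conserved microRNA that responds to stress, with a summit 63 bp from the start of the annotated precursor. The summit fell inside the b arm of the precursor. Its mature sequence and that of the a arm are given with bases 2 to 8, the seed, in capitals, as read from the RefSeq annotation of this assembly.
mir-34 a arm, chrX:2969812-2969833, minus strand: aGGCAGTGtggttagctggttg
mir-34 b arm, chrX:2969775-2969796, minus strand: aCGGCTACcttcactgccaccc

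The mir-34 region had 88.5 pooled, 59.9 in replicate 3 and 29.3 in replicate 4, ranks 196 and 1369 of the 30000 entries of those lists. A region in an intron of inso-1 had 86.6 pooled, 63.2 in replicate 3 and 24.2 in replicate 4, ranks 155 and 3041. A region 34 bp upstream of the non-coding RNA gene C30E1.9 had 83.2 pooled, 55.6 in replicate 3 and 25.9 in replicate 4, ranks 241 and 2293. A neighbouring entry inside the same gene, at 55.4 pooled and rank 90 on X, overlapped the same thresholded region. The last was in an intron of sams-1, which encodes an S-adenosylmethionine synthetase, with 77.9 pooled, 49.8 in replicate 3 and 25.2 in replicate 4, ranks 358 and 2563. All of these stood higher in replicate 3 than in replicate 4.

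Some X regions were stronger than the sams-1 region and yet not thresholded: 7 had a higher pooled signal. The region ranked 3, 5 bp past the end of the microRNA gene mir-8196.1 and 37 bp past linc-154, had 94.6 pooled, 52.0 in replicate 3 and 43.9 in replicate 4, and ranked 299 and 308 in those lists. The region ranked 4, 1025 bp upstream of fbxb-58, had 92.7 pooled, 55.6 in replicate 3 and 36.6 in replicate 4. The region ranked 5, 595 bp past the end of F55G7.5 and with the core, had 90.7 pooled, 43.3 in replicate 3 and 46.9 in replicate 4. Their ranks in the replicates were thus closer than those of the thresholded regions at inso-1 and sams-1. The others were an intergenic region nearest to K02D3.1 and adm-2 at 88.4, one in the 3′ part of F57G12.1 at 85.2, one 729 bp upstream of cebp-1, a C/EBP-type transcription factor gene, at 79.5, and one 64 bp upstream of sto-4, a stomatin gene, at 79.2. The thresholded list gives values of its own for its regions, from 90.9 at sams-1 to 120.8 at the strongest X region, so that its values are not those of the pooled list.

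All of the 25 strongest X regions had an entry in both replicate lists, with a median rank of 319 in replicate 3 and 747 in replicate 4. They were picked by the signal of the same replicates pooled, so such entries follow in part from that choice. No such share is given for autosomal regions of like signal. Over all X regions the share with an entry in both, within 180 bp, was 31.0%, and 32.3% of autosomal regions had one. Of the 25, 6 had their summit only in the promoter window of a protein-coding gene, 4 only in a gene-end window, 1 in both and 14 in neither. The promoter regions beyond those named included 197 bp upstream of kin-29, a salt-inducible type kinase gene (75.4 pooled), 521 bp upstream of ftt-2, a 14-3-3 protein gene (73.1), and 616 bp upstream of spat-3, a RING finger protein gene (72.0). The gene-end regions were 230 bp past nck-1, an SH2 and SH3 adaptor gene (75.9), 117 bp past epn-1, the epsin gene (75.2), 146 bp past mdl-1, a Mad-like transcription factor gene (74.1), and 403 bp past ipp-5, an inositol phosphatase gene, within an intron of hsp-25 (73.8). The mdl-1 region was the most uneven, with 18.6 in replicate 3 and 59.97 in replicate 4, ranks 11918 and 103. Some of these summits also lay in exons of non-coding RNA genes. These were F52D10.7 at ftt-2, T13H2.7 and T13H2.9 at spat-3, and R03E9.10 at mdl-1. The remaining region with both windows lay between T13C5.6 and C14F11.7 (73.4), in an exon of the non-coding RNA gene C14F11.14. A region in an intron of piki-1, a phosphoinositide 3-kinase gene, was 55 bp upstream of mir-4812 (74.0). The summit window of the piki-1 region was the only 1 of the 25 that held GTTCGA. Its nearest annotated tRNA gene was 1477 bp away, and whether the window holds unannotated tRNA-like sequence was not tested.

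**Figure D5:**
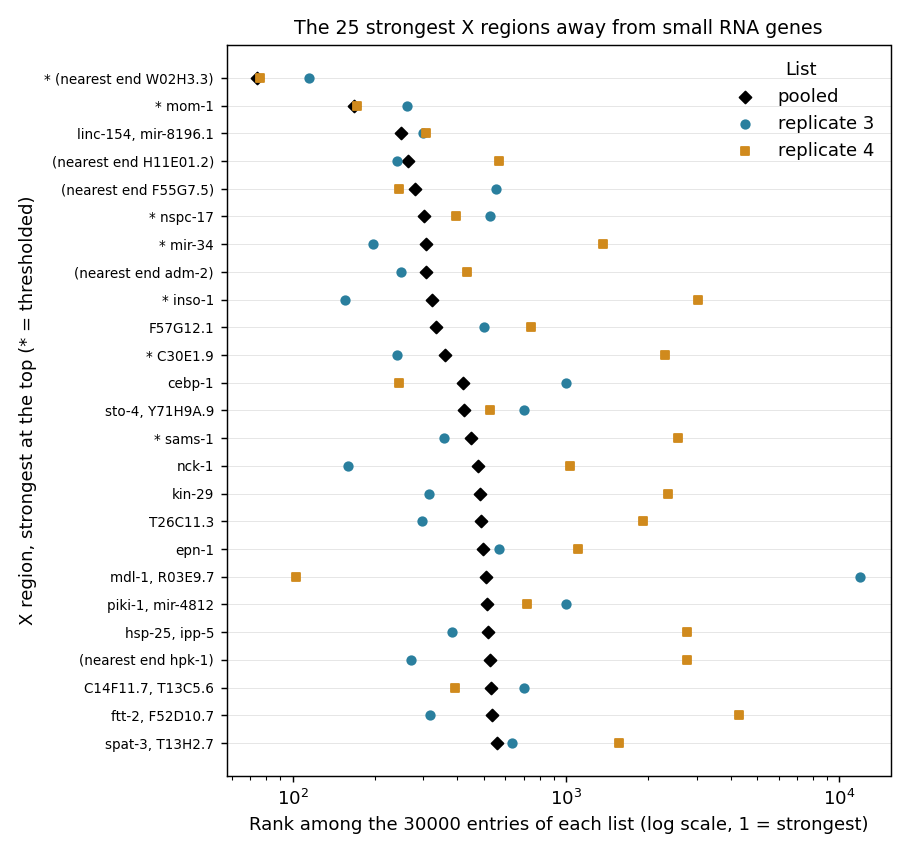
Rank (x axis, log scale, 1 is the strongest of 30000 entries) of the 25 strongest X regions in the pooled list and in each replicate list, strongest pooled signal at the top and named by the genes at the summit. Asterisks mark the 7 that overlap a thresholded region; mdl-1 has the widest spread, at 11918 in replicate 3 and 103 in replicate 4.

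The windows at sto-4 and spat-3 were of another kind. They were made almost wholly of the dinucleotide repeat CA or its complement and shared a run of 86 bases. They are shown here because their signal stands on sequence of low complexity.
rank 13, upstream of sto-4, chrX:11644012-11644112, plus strand: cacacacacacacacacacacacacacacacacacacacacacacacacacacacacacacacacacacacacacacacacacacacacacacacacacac
rank 25, upstream of spat-3, chrX:4606494-4606594, plus strand: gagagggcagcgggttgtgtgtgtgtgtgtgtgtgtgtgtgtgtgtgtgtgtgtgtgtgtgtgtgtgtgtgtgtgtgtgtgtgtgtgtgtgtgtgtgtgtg

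In the sto-4 region 44.8% of all 31-base words occurred elsewhere in the genome, and in the spat-3 region 38.8% did. None of the 25 strongest X regions had more than 50% such words, and 40 of all 5693 X regions (0.703%) and 240 of 23565 autosomal regions (1.02%) had. The part of read mapping in these values was not tested.

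Genes of known classes on X were then read from 14 lists, 13 of protein-coding genes and 1 of miRNA genes. No listed protein-coding gene had a thresholded region, and over all 2731 X genes 4 had one in a window or the gene body, namely mom-1, nspc-17, inso-1 and sams-1. X had 2 of 81 ribosomal protein genes, of which rpl-25.1 had a promoter region at 29.1, and 1 of 31 translation factor genes, eef-1A.2, an elongation factor gene with a promoter region at 53.7. Over all X protein-coding genes, 960 of 2731 (35.2%) had a promoter region, a share against which the counts of the classes are to be read. The median of the strongest region per X gene, over genes with one, was 28.2. Of 5 vitellogenin genes, which encode yolk proteins, 2 had a promoter region and 2 an end region, the highest at the end of vit-2 (50.9). Of 28 collagen genes 11 had a promoter region, the highest at col-44 (61.5). Of 13 muscle structure genes 6 had one, with the actin gene act-4 at 43.2.

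A promoter region was found at 16 of 34 neuropeptide genes, with the insulin-like gene ins-39 highest at 51.9, and at 17 of 46 ion channel genes, with the innexin gene inx-3 at 48.8. It was found at 8 of 23 nuclear hormone receptor genes, the highest of any window being 36.9 at the end of nhr-137, and at 8 of 22 homeobox and similar genes. The highest of the last class was at the end of lin-14, a developmental timing gene, at 60.6. Of 6 X genes of sex determination and dosage compensation, sdc-2, whose product starts dosage compensation in hermaphrodites, had a promoter region at 48.4 and the other genes of the list had none. All 3 heat shock genes had a promoter region, with the BiP-type chaperone gene hsp-3 at 44.0, and neither of 2 intestine genes had one. Both X genes of the germline list had one, at 30.4 for puf-9 and 23.9 for him-4. That list was made from gene name prefixes, and whether these 2 genes act in the germline was not checked. Of 74 X miRNA genes 26 had a promoter region (35.1%), and 72 of 187 autosomal miRNA genes had one (38.5%). In the promoter window 1 X miRNA gene, mir-34, and 2 autosomal ones had a thresholded region, and in the gene-end window 1 X gene and 3 autosomal ones did.

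Strong regions were spread along X. With the chromosome cut into left, middle and right parts of equal length, the 100 strongest X regions numbered 41 on the left, 26 in the middle and 33 on the right. The same parts held 33.8%, 31.5% and 34.7% of all X regions. On the autosomes, cut in the same way, the 100 strongest regions numbered 34, 36 and 30.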

How the data were processed

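Peaks with background regions had been listed for each replicate and for both replicates pooled, and a reproducibility procedure (irreproducible discovery rate) turned these 3 lists into the thresholded one, per the deposited notes. Aligner and peak caller are not stated in those sources. For each region the authors deposited a signal, their caller's enrichment value on an unstated scale, so ranks and percentiles were taken inside 1 list at a time. The lists hold no read counts, so depth is unknown. The ce11 lists were used, and of the ce10 lists only the thresholded one, for counts.

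Distances, windows and overlaps (at least 1 bp) were computed from summits with Python 3.11.15, NumPy 2.4.6 and pandas 2.3.3, and exact 95% binomial intervals with SciPy 1.17.1, after the functions had been checked on made-up regions. They cover the counting of regions, which are not independent of each other. Genes were those of Ensembl release 115 (WBcel235, the ce11 assembly) and sequences those of the RefSeq genome of that assembly. Of 46890 genes 46881 had a RefSeq record, which named non-coding genes and 13 coding genes without an Ensembl name. Repeats were counted as 31-base words found elsewhere in the genome.

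No hypothesis test was made, because there is 1 group of 2 replicates and regions are not replicates. The regions and lists were chosen with earlier results of these data known. The replicate match within 180 bp and the sets of 25, 50 and 100 strongest were chosen after values had been seen. So were the split by both gene windows, the signal ranges, the 3 chromosome parts, the distance ranges and the strings GCGAAGGG, CGAAGGG and GGCAGGG. Named regions were the 25 strongest on X and all thresholded X regions, with the genes whose windows or bodies held the summit or the nearest coding gene, and up to 4 genes by signal from each list. Alternatives were the distance to small RNA genes, further RNA classes, a stricter thresholded list, the number of strongest entries, the promoter window and each replicate alone.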

Additional observations from a re-analysis of the deposited data

How the results depend on the processing

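Of 37 alternative values, 27 stayed near the reported ones, 10 moved and 0 reversed. With a limit of 0 bp to small RNA genes in place of 200 bp, 0.893% of X regions were thresholded, X made up 14.0% of the thresholded regions and 16.0% of the 369 strongest, and 33.6% of X regions were at promoters. These higher values came with the entries just beside small RNA genes, which that limit lets in. Leaving out miRNA, rRNA and other ncRNA genes as well gave 25.8% at promoters. With only the 184 strongest regions of the thresholded list, 0.0351% of X regions were thresholded. X held 2.0% of the 100 strongest. Promoter windows from 500 bp upstream to 100 bp downstream gave 19.1% of X regions at promoters and 63 listed genes with a promoter region, against 102 as reported, and windows from 2000 bp upstream to 500 bp downstream gave 53.4%. With each replicate list alone in place of the pooled list, 0.138 to 0.167% of X regions were thresholded, the X median was 98.9 to 100.2% of the autosomal one, X held 6.23 to 8.13% of the 369 strongest, and 32.0 to 33.1% were at promoters. No paired analysis was possible because there was 1 group. The thresholded list on ce10 was longer, with 609 regions of which 126 were on X (20.7%), and small RNA genes were not placed on it. With 7 thresholded places on X, each percentage of thresholded X regions rests on few regions.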
